A study of Mus musculus with 6 samples.

Results

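The data are the H3K27ac peaks of mouse embryonic stem cells (mESCs) at the promoters of 86 genes for chaperones and heat shock proteins. The 86 genes were those among 21853 protein-coding genes of the GENCODE annotation of the GRCm38 (mm10) genome whose symbol named an Hsp90, Hsp70, small heat shock, Hsp60, Hsp10 or Hsp110 protein, a J-domain protein (Dnaja, Dnajb, Dnajc), a subunit of the chaperonin CCT/TRiC (Cct, Tcp1) or a Bag co-chaperone. The rule used gene symbols only. H3K27ac, acetylation of lysine 27 of histone H3 that is found at active promoters and enhancers, was measured by ChIP-seq in 6 samples of the mESC line E14Tg2A. The 2 control samples received the solvent DMSO, 2 samples received 100 nM NVP-2 for 120 min, and 2 samples received 800 nM actinomycin D (ActD) for 120 min. NVP-2 inhibits the elongation kinase CDK9, and ActD binds DNA and blocks RNA polymerases. All samples carried the same Rosa26-Cre and Oct4-IRES-Puro alleles, with Oct4 driving the puromycin resistance, grew with LIF and inhibitors of MEK and GSK3, and held chromatin of the human line HEK293T as a spike-in. The file analysed was the control peak list, 22973 regions called over both control replicates together. The list gives positions only, so there was no peak height, no depth and no error between replicates in it. The treated samples were not analysed here, no test between conditions was made, and every value below describes control cells.

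Molecular chaperones bind unfolded or misfolded proteins and help them to fold, to cross membranes or to be degraded. Hsp70 proteins work in cycles of ATP binding with J-domain proteins, which bring substrates and stimulate the ATPase, and with nucleotide exchange factors such as Bag proteins. Many of these genes are transcribed at a basal level in every cell and are induced by heat shock factor, which binds inverted repeats of the unit GAA, or in the endoplasmic reticulum (ER) by the unfolded protein response.

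The promoter sequences on which the results below turn came from the GRCm38 genome and are written 5′ to 3′. The bidirectional promoter of Hspd1 (mitochondrial Hsp60) and Hspe1 (mitochondrial Hsp10), the 107 bases between their start sites at chr1:55088025-55088131 on the plus strand, is shown because the promoters of both genes hold a heat shock element of 3 units. The capitals are 18 bases made of 2 overlapping matches to the element, which was searched as GAA, TTC and GAA in a row with 2 free bases between each, or the same on the other strand (TTC, GAA and TTC).
Hspd1 and Hspe1: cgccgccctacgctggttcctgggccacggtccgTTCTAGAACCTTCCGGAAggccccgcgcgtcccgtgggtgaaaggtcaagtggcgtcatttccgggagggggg
The other 2 members with such an element are shown with 5 bases on either side of it (capitals), at chr5:149636283-149636305 on the minus strand for Hsph1, which encodes an Hsp110 exchange factor, and at chr5:29735847-29735869 on the plus strand for Dnajb6, which encodes a J-domain protein that suppresses aggregation.
Hsph1: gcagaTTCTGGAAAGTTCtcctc
Dnajb6: tccgaGAATCTTCCGGAAcgcta
ER stress elements, CCAAT and CCACG with 9 free bases between them (capitals, either strand), are shown for Hspa5, the ER Hsp70 BiP (chr2:34772020-34772048, plus strand), for Hsp90b1, the ER Hsp90 (chr10:86705633-86705661 and chr10:86705528-86705556, minus strand), and for Dnajc3, an ER J-domain protein (chr14:118937822-118937850, plus strand).
Hspa5: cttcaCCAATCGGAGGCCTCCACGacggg
Hsp90b1, distal: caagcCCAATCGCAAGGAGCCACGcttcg
Hsp90b1, proximal: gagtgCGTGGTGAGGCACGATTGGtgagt
Dnajc3: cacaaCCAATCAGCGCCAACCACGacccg
The 250 bases upstream of Hspa1a (chr17:34972157-34972406) and of Hspa1b (chr17:34959239-34959488), the pair of heat-inducible Hsp70 genes, are shown because 1 of the pair lay under a peak and the other did not. Both are on the minus strand, and the capitals are the 3 bases that differ.
Hspa1a: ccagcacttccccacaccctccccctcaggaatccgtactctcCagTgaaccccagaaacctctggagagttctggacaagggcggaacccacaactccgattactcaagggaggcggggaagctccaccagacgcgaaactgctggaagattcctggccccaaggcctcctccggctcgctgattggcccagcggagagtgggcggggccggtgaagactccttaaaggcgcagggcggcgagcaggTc
Hspa1b: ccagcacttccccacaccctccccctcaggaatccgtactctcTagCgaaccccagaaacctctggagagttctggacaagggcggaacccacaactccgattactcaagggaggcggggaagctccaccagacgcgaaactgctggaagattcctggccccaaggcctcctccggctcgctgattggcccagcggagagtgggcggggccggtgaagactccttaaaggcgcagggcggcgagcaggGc

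A promoter, taken as 1 kb either side of the transcription start site (TSS) of the isoform with the widest genomic extent, was called marked where a control peak overlapped it by at least 1 bp. Of the 86 promoters 73 were marked (84.9%, 95% Wilson interval 75.8 to 90.9%), beside 48.8% of all protein-coding genes (10674 of 21853, 48.2 to 49.5%). Such intervals cover counting error only and treat the genes as independent. With the TSS itself required to lie inside a peak, the members counted 68 of 86 (79.1%, 69.3 to 86.3%) and all protein-coding genes 44.2%. The families ranged from 9 of 13 genes in Hsp70 and in DnajB to every gene in Hsp90, DnajA, CCT/TRiC and Bag. Their intervals were wide, and those of Hsp90, Hsp70, the small heat shock proteins, Hsp60 with Hsp10 and Hsp110, Hspbap1 with Hspbp1, and DnajB included the 48.8% of all protein-coding genes. No family was tested against another. Each marked member lay under exactly 1 peak, and the 73 members lay under 72 peaks because Hspd1 and Hspe1 shared theirs.

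**Figure D1:**
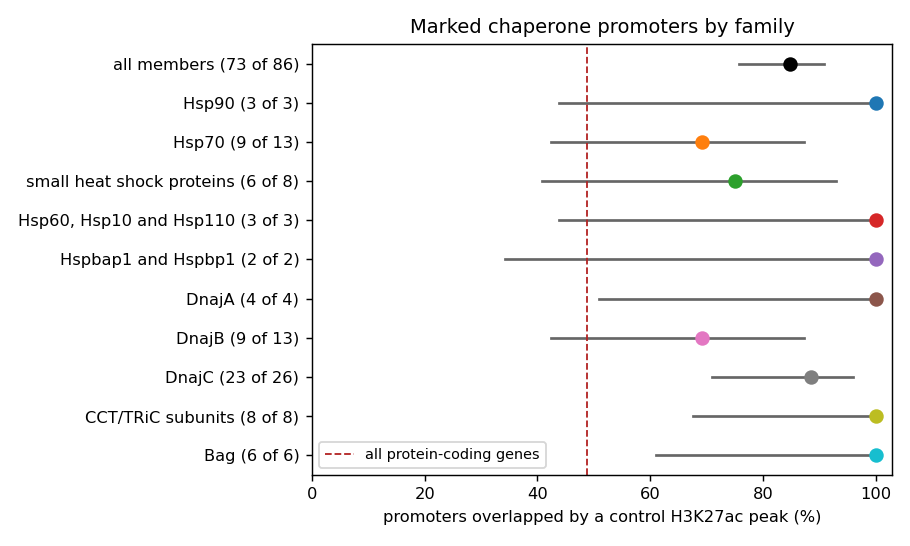
Share of promoters overlapped by a control H3K27ac peak (x axis, percent) for all 86 members and for each family (y axis, with the counts). Points are shares, horizontal lines are 95% Wilson intervals, and the dashed line is the share over all protein-coding genes, 48.8%. The points run from 69.2% for Hsp70 and DnajB to 100% for 6 families, and the interval of all members (75.8 to 90.9%) lies to the right of the dashed line.

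The 3 Hsp90 genes, whose products finish the folding of kinases, receptors and other clients, were all marked. Hsp90aa1, the heat-inducible cytosolic form, had a peak of 44580 bp (chr12:110671947-110716526) around its TSS at 110702728, reaching 13798 bp upstream and 30781 bp downstream. Hsp90ab1, the constitutive cytosolic form, had a peak of 23010 bp (chr17:45563256-45586265) around its TSS at 45573271, with 12994 bp upstream and 10015 bp downstream. These peaks covered the whole of each gene. The peak of Hsp90b1 was far narrower, 3198 bp (chr10:86703865-86707062), with 1553 bp upstream and 1644 bp downstream of the TSS at 86705509. The annotated start of Hsp90aa1 that stood for the gene was 6333 to 6777 bp upstream of its other 4 annotated starts, and all 5 lay under the same peak.

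Of the 13 Hsp70 genes 9 were marked (69.2%, 42.4 to 87.3%, which includes 48.8%). Hspa8, the constitutive cytosolic Hsp70 (Hsc70), had the widest peak of the family, 19485 bp (chr9:40788277-40807761), reaching 12707 bp upstream and 6777 bp downstream of the TSS at 40800984. The peak of Hspa4, an Hsp110-type exchange factor, was 11586 bp wide, and that of Hspa9, the mitochondrial Hsp70 mortalin, 8539 bp. Hspa5 had a peak of 2804 bp (chr2:34770382-34773185) around the TSS at 34771970. The ribosome-associated Hspa14 had 2738 bp, the testis-enriched Hspa2 1824 bp, the microsomal Hspa13 1717 bp and the divergent family member Hspa12a 1526 bp. Hspa1b was marked by the narrowest peak of the family, 920 bp (chr17:34959355-34960274), which lay between 117 and 1036 bp upstream of the TSS at 34959238 and left the TSS itself uncovered. The 4 unmarked genes were Hspa1a, Hspa1l, Hspa4l and Hspa12b. The nearest peak to Hspa1a (TSS chr17:34972156) was 9017 bp away and that to the testis Hsp70 gene Hspa1l (TSS chr17:34972703) 8470 bp away, and it was the same peak. The nearest peak to Hspa4l, the testis-enriched relative of Hspa4 (TSS chr3:40745430), was 53941 bp away, and to Hspa12b (TSS chr2:131127280), a gene of endothelial cells, 24318 bp away.

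Hspa1a and Hspa1b encode nearly the same protein and their promoters had the same letters at 247 of the 250 bases printed above (98.8%). Along 100-base steps upstream of the TSS the identity was 99.0%, 100% and 87.0%, and 52.0% in each of the next 2 steps. A heat shock element of 2 units, GAANNTTC, lay at positions -104 to -97 from the TSS in both. A read that lies wholly in an identical stretch cannot be assigned to either copy, and the authors removed reads of low mapping quality, so the share of exact words of over 100 bases that recur elsewhere in the genome was counted. It was 34.7% in the window of Hspa1a and 34.7% in that of Hspa1b, with 7.40% in the 1 kb upstream and 61.9% in the 1 kb downstream of each TSS, and 10.3% in the window of Hspa1l. The Hspa1b peak itself held 0% of such words. Among the other members only Hspb1 (12.2%), Hspb3 (9.50%) and, with at most 1.15%, Dnajc30, Dnajb14 and Dnajb7 had any. The part of repeated sequence in the missing peak at Hspa1a was not tested.

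**Figure D2:**
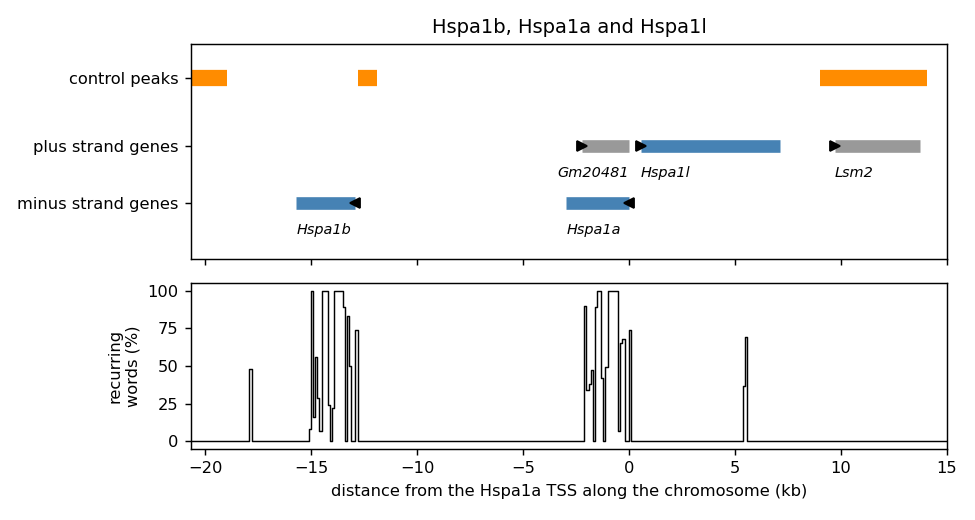
Hspa1b, Hspa1a and Hspa1l on chromosome 17, with distance from the Hspa1a TSS along the chromosome in kb on the x axis. Upper panel: control peaks (orange), members (blue) and neighbouring genes (grey), with arrowheads at the TSS and pointing along the gene. Lower panel: share of words of over 100 bases that recur elsewhere in the genome, in steps along the locus (y axis, percent). The 920 bp peak lies just outside the upstream end of Hspa1b, no peak lies over Hspa1a or Hspa1l, and the repeated words lie mostly in the bodies of Hspa1b and Hspa1a.

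Small heat shock proteins hold unfolding proteins without using ATP. Of the 8 genes with their Hspb symbols 6 were marked (75.0%, 40.9 to 92.9%, which includes 48.8%). They held both the widest peak of all members and some of the narrow ones. The peak of Hspb8, a partner of Bag3 in selective autophagy, was 47543 bp wide (chr5:116380677-116428219), with 5355 bp upstream and 42187 bp downstream of the TSS at 116422864. That of Hspb1 (Hsp25 in mouse), the stress-induced form, was 26097 bp wide (chr5:135884839-135910935), with 3080 bp upstream and 23016 bp downstream of the TSS at 135887919. Both genes lay wholly inside their peaks. Hspb7, a heart and muscle form, had a peak of 2749 bp, the testis form Hspb9 2507 bp and the muscle form Hspb6 2173 bp. Hspb11, which has the symbol of the family but encodes a subunit of the intraflagellar transport machinery, had the narrowest, 1121 bp (chr4:107252502-107253622), which ended 29 bp downstream of its TSS at 107253593 and also covered the start of its divergent neighbour Lrrc42. The muscle genes Hspb2 (TSS chr9:50752354) and Hspb3 (TSS chr13:113663676) were unmarked, with the nearest peak 5732 bp and 43500 bp away. Hspbap1 and Hspbp1 met the symbol rule although they carry no Hspb number: the first binds Hspb1 and the other is an exchange factor of Hsp70. Both were marked, by peaks of 9622 bp (chr16:35768729-35778350, TSS 35770375) and 2129 bp (chr7:4683873-4686001, TSS 4685068).

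Hspd1 (TSS 55088024, minus strand) and Hspe1 (TSS 55088132, plus strand) started 108 bp apart and shared a peak of 14342 bp (chr1:55079387-55093728). From Hspd1 the peak reached 5704 bp upstream and 8637 bp downstream, and it covered all of Hspe1. The heat shock element printed above ended 35 bases from the Hspd1 TSS and 56 bases from that of Hspe1. Hsph1 had a peak of 1827 bp (chr5:149635295-149637121) around its TSS at 149636171.

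J-domain proteins were the largest group, in 3 classes. All 4 DnajA genes, the class built most like bacterial DnaJ, were marked, with peaks of 3637 bp at Dnaja1 (chr4:40721800-40725436, TSS 40722922), 1961 bp at Dnaja2, 1948 bp at the mitochondrial Dnaja3 and 758 bp at Dnaja4 (chr9:54699231-54699988, TSS 54699559). Of the 13 DnajB genes 9 were marked (69.2%, 42.4 to 87.3%, which includes 48.8%). Dnajb1 (Hsp40), the main partner of Hsp70 in heat shock, had the widest peak, 8398 bp (chr8:83601699-83610096), most of it upstream of the TSS at 83608193 (6494 bp, with 1903 bp downstream). Dnajb6 had 7968 bp (chr5:29735306-29743273), with 727 bp upstream and 7240 bp downstream of the TSS at 29736033. Dnajb4 had 6977 bp, Dnajb14 5762 bp, the neuronal chaperone Dnajb2 4507 bp and Dnajb12, an ER membrane protein, 1931 bp. The ER lumenal Dnajb11 had 2184 bp and Dnajb9 2162 bp. Dnajb5 had the narrowest, 1092 bp (chr4:42949852-42950943), which began 38 bp downstream of its TSS at 42949814. The 4 unmarked DnajB genes, Dnajb3, Dnajb7, Dnajb8 and Dnajb13, are known from testis. The nearest peak was 65866 bp away for Dnajb3 (TSS chr1:88205782), 7685 bp for Dnajb7 (TSS chr15:81408299) and 6778 bp for Dnajb8 (TSS chr6:88222268). For Dnajb13 (TSS chr7:100514960) it was 2675 bp away and lay over another annotated start of the gene at 100511781, 3179 bp downstream, so that Dnajb13 was the only unmarked member that was marked at another start.

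Of the 26 DnajC genes, which share little beyond the J domain, 23 were marked (88.5%, 71.0 to 96.0%). Dnajc8, a spliceosome-associated protein, had the widest peak, 13564 bp (chr4:132523568-132537131), which reached 11982 bp upstream and 1581 bp downstream of the TSS at 132535550 and covered the start of Atpif1. Next came Dnajc21, needed for ribosome maturation, with 8968 bp and Dnajc7, an Hsp90 and Hsp70 adaptor, with 7846 bp. Dnajc14 had 5338 bp, Dnajc4 5023 bp, Dnajc16 4730 bp and the clathrin uncoating factor auxilin (Dnajc6) 4485 bp. The peaks of Dnajc5, the cysteine string protein of synaptic vesicles, of the mitochondrial Dnajc11 and of the ribosome-bound Dnajc2 were 3955, 3859 and 3660 bp wide. The endosomal Dnajc13, Dnajc22, Dnajc27, the histone chaperone Dnajc9, the mitochondrial import factor Dnajc19, the splicing-related Dnajc17, Dnajc18, the ER proteins Dnajc10 and Dnajc1, and the mitochondrial Dnajc30 and Dnajc15 had peaks between 1150 and 2356 bp. The narrowest were those of Dnajc24, a diphthamide synthesis factor (714 bp, chr2:106002525-106003238, from 311 bp downstream of the TSS at 106003549), and Dnajc25 (474 bp, chr4:58995245-58995718, from 131 bp downstream of the TSS at 58995114). Unmarked were Dnajc3, which dampens the ER stress kinase PERK (TSS chr14:118937976, nearest peak 11848 bp away), Dnajc12, a partner of the aromatic amino acid hydroxylases (TSS chr10:63382443, 11350 bp) and Dnajc28 (TSS chr16:91618999, 21363 bp). Dnajc3, like Dnajb8 and Dnajb13, had a control peak elsewhere in the gene.

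All 8 annotated members of CCT/TRiC, the ring-shaped chaperonin that folds actin and tubulin, were marked (67.6 to 100%), including Cct6b, the testis form of a subunit. Cct3 had the widest peak, 13979 bp (chr3:88294241-88308219), with 2875 bp upstream and 11103 bp downstream of the TSS at 88297116, and Cct6b the narrowest, 1524 bp (chr11:82763724-82765247, TSS 82764321). Between them lay Cct7 with 5905 bp, Cct8 with 4302 bp, Cct4 with 3744 bp, Tcp1 with 3666 bp, Cct5 with 3559 bp and Cct2 with 1988 bp. The Cct4 peak began 42 bp downstream of the TSS. The remaining subunit gene, Cct6a, was not counted because the annotation used does not class it as protein-coding. A peak of 4180 bp (chr5:129786334-129790513) covered its RefSeq start at 129787356. All 6 Bag genes were marked (61.0 to 100%). Bag5 had the widest peak, 4368 bp (chr12:111711755-111716122, TSS 111713257), and Bag4 the narrowest, 1807 bp (chr8:25784310-25786116, TSS 25785287). Bag6, a factor for tail-anchored membrane proteins, had 3094 bp, Bag1 2673 bp, the stress-induced Bag3 2580 bp (chr7:128523220-128525799, with 396 bp upstream and 2183 bp downstream of the TSS at 128523616) and Bag2 2009 bp.

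**Figure D3:**
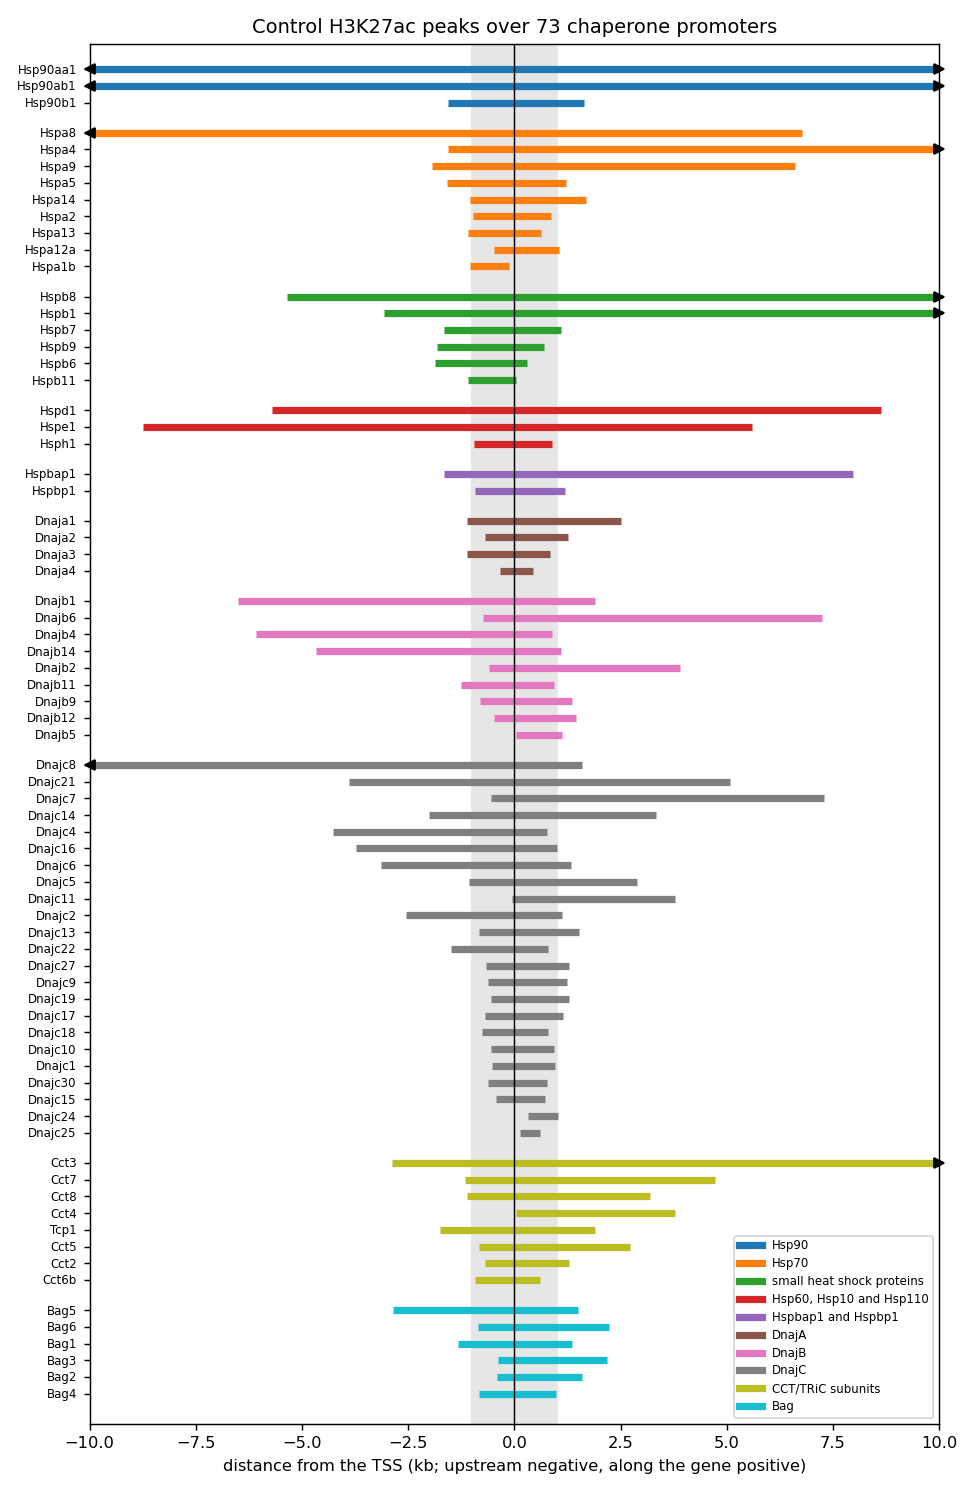
Extent of the control peak over each of the 73 marked promoters (y axis, by family and, within a family, by width) as distance from the TSS in kb, with upstream to the left (x axis). The grey band is the promoter window of 1 kb either side, and arrowheads stand for peaks that go on past 10 kb. Most bars cross the TSS; those of Hspa1b, Dnajb5, Dnajc24, Dnajc25 and Cct4 lie to 1 side of it.

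The promoter peaks of members had a median width of 2749 bp (exact 95% order-statistic interval 2162 to 3859 bp, 73 genes), beside 2174 bp (2121 to 2224 bp) for all marked protein-coding genes. The family medians ran from 1954 bp in DnajA and 2285 bp in DnajC to 14342 bp for Hsp60, Hsp10 and Hsp110 and 23010 bp for Hsp90. Hsp60, Hsp10 and Hsp110 held only 3 genes, and so did Hsp90. The 14342 bp is the shared peak of Hspd1 and Hspe1, counted for each of them, and Hsph1 had 1827 bp. Peaks of at least 10 kb lay over 10 of the 73 marked members (13.7%), beside 10.8% of all marked genes. They were Hsp90aa1, Hsp90ab1, Hspa4, Hspa8, Hspb1, Hspb8, Hspd1, Hspe1, Dnajc8 and Cct3, which left DnajA, DnajB, Bag and the pair Hspbap1 and Hspbp1 with none. Genes lying wholly inside their promoter peak were 5 of 73 (6.85%), beside 5.51% of all marked genes. The peaks of members reached a median of 1081 bp upstream and 1341 bp downstream of the TSS, beside 841 and 1172 bp over all marked genes. They reached further downstream than upstream at 48 of 73 members (65.8%), beside 67.6%.

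**Figure D4:**
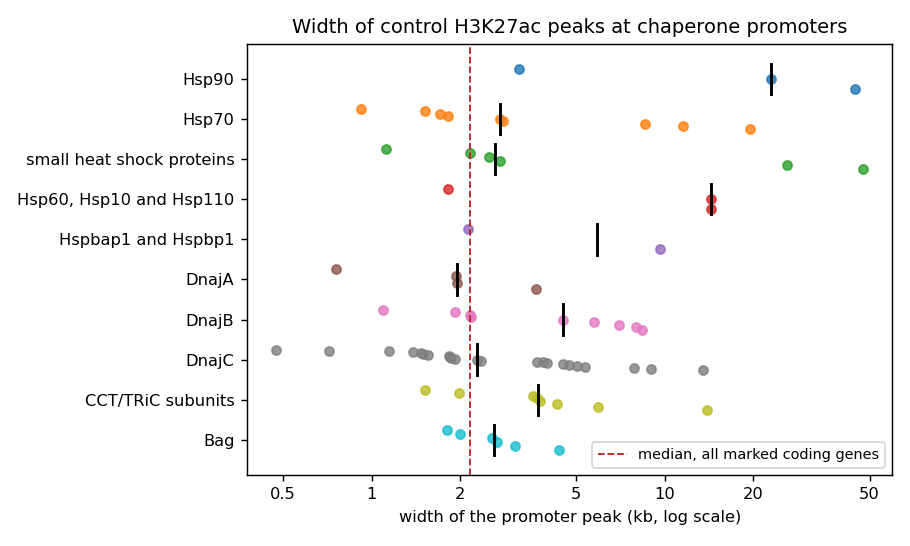
Width of the promoter peak in kb on a log axis (x axis) for each marked member (points), by family (y axis). Black bars are family medians and the dashed line is the median over all marked protein-coding genes, 2174 bp. The points run from 474 bp (Dnajc25) to 47543 bp (Hspb8), and the family medians lie to the right of the dashed line in every family but DnajA.

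No promoter was close to the edge of the window. The peak came within 500 bp of the TSS at every marked member, and no unmarked member had a peak within 500 bp outside the window. The 13 unmarked members had their nearest peak at a median of 11350 bp (6778 to 43500 bp), beside 60321 bp (57989 to 62373 bp) for all unmarked genes.

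Members were also counted by short lists of textbook function, which overlap and do not hold every member with that function. Of 12 members listed as heat-responsive 11 were marked (91.7%, 64.6 to 98.5%, beside 48.8% of all protein-coding genes), Hspa1a being the unmarked one. Peaks of at least 10 kb lay over 6 of the 11 marked ones. These were Hsp90aa1, Hspb1, the largely constitutive Hsp90ab1 and Hspa8, and Hspd1 and Hspe1 with their shared peak. Such peaks lay over 10.8% of all marked protein-coding genes and 13.7% of marked members, these 6 included. Of 8 members listed for the ER 7 were marked, all but Dnajc3, and none had a peak of 10 kb. The list left out Dnajb12, which was marked. All 6 members listed as mitochondrial, Hspd1 and Hspe1 again among them, were marked, and so were Dnajc11 and Dnajc30, which the list left out. Of 11 members listed for germ cells or muscle 4 were marked (36.4%, 15.2 to 64.6%), namely Hspa2, Hspb7, Hspb9 and Cct6b, and this interval includes the 48.8% of all protein-coding genes. Of these 4, Hspb9 shared its peak with the start of Kat2a and Cct6b with that of Zfp830. The unmarked ones, Hspa1l, Hspb2, Hspb3, Dnajb3, Dnajb7, Dnajb8 and Dnajb13, were 7 of the 13 unmarked members. This list left out the marked Hspb6 and the unmarked Hspa4l.

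Genes outside the symbol rule that work with the members were counted as well, to be read against the same 48.8% of all protein-coding genes. Of 19 genes for co-chaperones of Hsp90 and Hsp70 18 were marked (75.4 to 99.1%), all but the muscle gene Unc45b. Of 20 genes for ER folding and the unfolded protein response 19 were marked (76.4 to 99.1%), all but Atf4. Of 14 genes for mitochondrial protein quality 13 were marked (68.5 to 98.7%), all but Spg7. Of 13 genes for prefoldin and CCT cofactors 10 were marked (49.7 to 91.8%), all but Pfdn4, Pdcl and Pdcl3. Spg7, Pfdn4 and Pdcl3 were marked at another annotated start. Of 5 heat shock factor genes (with the factor-binding Hsbp1) 3 were marked, all but Hsf4 and Hsf5, and the interval of 23.1 to 88.2% includes that share. As a check of the cell type, 9 of 10 mESC markers were marked, all but Esrrb, which was marked at another annotated start, beside 4 of 12 markers of fibroblasts and other lineages (33.3%, 13.8 to 60.9%, which includes the share of all genes). The 4 were Pdgfrb, Gata4, Gata6 and Eomes.

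Many members shared their promoter with another gene. An opposite-strand protein-coding gene started within 1 kb upstream of 20 of 86 members (23.3%), beside 7.34% of all protein-coding genes. The shortest distances were 1 bp between Bag4 and Lsm1, 23 bp between Bag5 and Apopt1, 24 bp between Cct6b and Zfp830, 32 bp between Dnajc2 and Psmc2 and 37 bp between Tcp1 and Mrpl18. Pairs made of members were Hspd1 with Hspe1 and Hspa1a with Hspa1l, 547 bp apart. Hspd1 and Hspe1 were marked, and Hspa1a and Hspa1l were not. Of the 20 members 17 were marked, beside 90.3% of all genes with such a neighbour. Without such a neighbour 56 of 66 members were marked (84.8%), beside 45.6% of all such genes. The peak held the TSS of another protein-coding gene at 31 of 73 marked members (42.5%), beside 25.3%. Which of the genes under a shared peak the acetylation belongs to cannot be told apart in the list.

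Base composition was read in the same windows from the genome. The CpG ratio, the number of CpG dinucleotides over that expected from the C and G content, had a median of 0.700 (0.651 to 0.746) in marked members and 0.435 (0.334 to 0.753) in unmarked members, and these intervals overlapped. Over all protein-coding genes it was 0.641 in marked and 0.227 in unmarked promoters. GC content was 54.3% in marked and 55.1% in unmarked members, beside 54.3% in marked and 47.2% in unmarked promoters of all protein-coding genes. Among windows with a CpG ratio of 0.6 or more, 54 of 59 members were marked (91.5%, 81.6 to 96.3%), beside 83.6% of all genes. From 0.3 to 0.6 it was 16 of 22 (72.7%, 51.8 to 86.8%), beside 56.0%. Both of these intervals include the share of all genes beside them. Below 0.3 it was 3 of 5 (60.0%, 23.1 to 88.2%), beside 7.68%. These 3 were Hsp90aa1 (0.252), Hspb7 (0.274) and Dnajc25 (0.289), and the other starts of Hsp90aa1, under the same peak, had ratios from 0.883 to 0.901. The 5 unmarked members with a ratio of 0.6 or more were Hspa1a (0.813), Dnajc3 (0.785), Hspa4l (0.753), Dnajb3 (0.689) and Hspa1l (0.620).

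**Figure D5:**
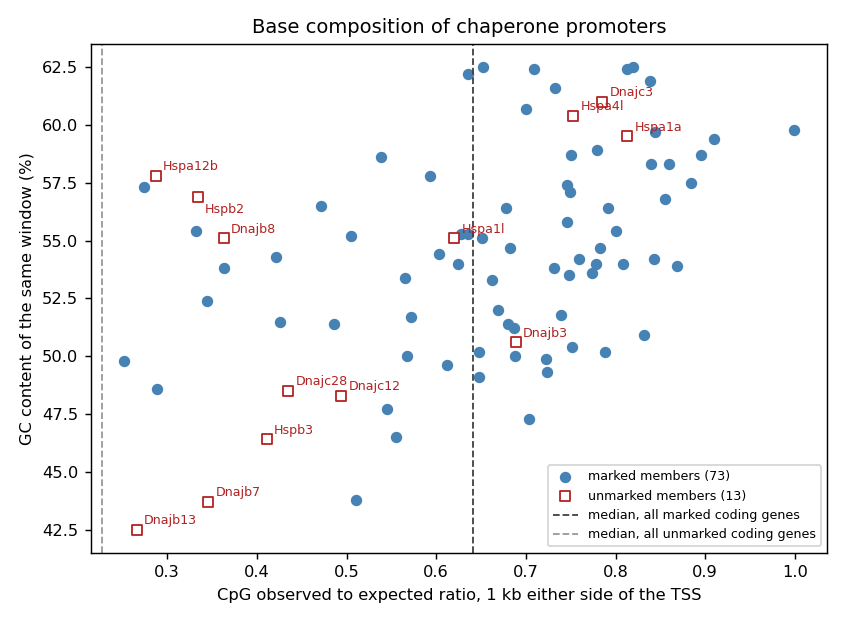
CpG observed to expected ratio (x axis) and GC content in percent (y axis) in the window of 1 kb either side of the TSS for the 73 marked members (filled circles) and the 13 unmarked members (open squares, named). Dashed lines are the median CpG ratios of all marked (0.641) and all unmarked (0.227) protein-coding genes. Most marked members lie above 0.6, and the unmarked members are spread from 0.266 (Dnajb13) to 0.813 (Hspa1a).

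Short motifs were searched on both strands from 250 bp before to 50 bp after the TSS. The heat shock element of 3 units was found in 4 of 86 members (4.65%), Hspd1, Hspe1, Hsph1 and Dnajb6, and in 0.471% of all protein-coding genes. All 4 were marked, Hspd1 and Hspe1 with 1 shared element and peak. Over all protein-coding genes the element was in 0.365% of marked and 0.573% of unmarked promoters. In the sequences printed above it began at position -129 from the TSS of Hsph1 used here and at -181 from that of Dnajb6. Counted from the RefSeq starts, the element began at positions 36 and 15, downstream, in Hsph1 and at -46 in Dnajb6. The element of 2 units (GAANNTTC or TTCNNGAA), which every 3-unit element also contains, was found in 21 members (24.4%), beside 13.9%. It was in 23.3% of marked and 30.8% of unmarked members, and in 11.3% of marked and 16.5% of unmarked protein-coding genes. Carriers without a 3-unit element were Hsp90aa1, Hspa1a, Hspa1b, Hspa4l, Hspa9, Hspb1, Hspb3, Hspb6, Hspb8, Dnaja4, Dnajb1, Dnajc10, Dnajc12, Dnajc27, Dnajc30, Cct5 and Bag3. The unmarked ones were Hspa1a, Hspa4l, Hspb3 and Dnajc12. In Hsp90aa1 it began at position 1 from the TSS used here. The other starts of this gene, 6333 to 6777 bp downstream, were not searched. The ER stress element was found in 2 members (2.33%), Hsp90b1 and Dnajc3, beside 0.114%. It occurred in the marked Hsp90b1, where it began at positions -147 and -42 from the TSS, and in the unmarked Dnajc3, where it began at -149. The element of Hspa5 lay from 55 bases downstream of the start used here, outside the searched bases, and at position -65 from the RefSeq start.

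Of the general promoter motifs, the GC box GGGCGG was in 68.6% of members, beside 45.0% of all genes, and in 72.6% of marked members, beside 66.3% of marked genes. CCAAT, which the ER stress element contains, was in 38.4% of members, beside 38.7%. TATAAA was in 8 members (9.30%), beside 12.4%, and in 6.85% of marked members, beside 6.43% of marked genes. The ETS-type motif CCGGAAG was in 20 members (23.3%), beside 11.2%, and in 26.0% of marked members, beside 19.4% of marked genes. In Hspd1, Hspe1 and Dnajb6 it overlapped the heat shock element. The NRF1 palindrome was in 1.16%, beside 1.20%. In the RefSeq promoters of the same build, which were at hand for 71 of the 86 members, the 3-unit heat shock element was found in the same 4 members (5.63%, beside 0.575% of 16515 genes) and the ER stress element in Hspa5, Hsp90b1 and Dnajc3 (4.23%, beside 0.170%). A match of letters is a description and shows no binding.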

How the data were processed

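Groups, doses and replicate numbers came from the labels. According to the methods, the authors trimmed reads with Cutadapt, aligned them to a joint mouse and human genome with bwa meme, and filtered duplicates (Picard 2.9.1) and reads of low mapping quality (samtools 1.4). Peaks came from LanceOtron, and nearby peaks were joined with Bedtools. Peaks below height thresholds after subtraction of the input, and peaks away from ATAC-seq summits, were dropped. The deposited list holds peak positions in mm10 (bp, no score or count), pooled over the 2 control replicates. The list itself gives no depth. A promoter without a listed peak may have failed a threshold.

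Positions were compared with GENCODE release M21, an older release than the authors used, and with the GRCm38 sequence. The start of the isoform with the largest genomic span stood for a gene. Shares were given 95% Wilson intervals and medians exact order-statistic intervals. Widths, nearest peaks, base composition, motifs, divergent neighbours and recurring words of over 100 bases (exact, both strands) were computed in Python 3.11.15 with numpy 2.4.6, scipy 1.17.1, matplotlib 3.10.9 and Biopython 1.88, tested on simulated data. RefSeq promoters of the same build were read for 71 members. Hsp90aa1, Hsp90ab1, Hspa8, Hspa9, Hspa13, Hspb2, Dnajc2, Dnajc5, Dnajc11, Dnajc12, Dnajc18, Dnajc22, Dnajc30, Cct4 and Bag4 had no entry. The members and lists were chosen with earlier results of these data known. Every member was named, with full positions for the widest and narrowest peak of each family, unmarked members, members listed as heat-responsive and members with a 3-unit heat shock element.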

Additional observations from a re-analysis of the deposited data

How the results depend on the processing

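The share of marked members lay between 79.1% and 86.6% under all alternatives, inside the interval of 75.8 to 90.9%. It was 84.9% with windows of 500 bp or 2 kb, 79.1% with the TSS inside a peak, 86.0% with any TSS, 82.6% with the longest spliced isoform, 80.2% with peaks of at least 1 kb, 83.7% with 500 bp of overlap, 83.9% without another TSS within 2 kb (47 of 56), 86.1% with 1 member per cluster and 86.6% without the 4 members rich in recurring words, an alternative chosen after seeing the data like the RefSeq promoters. None of 80 alternative values of the family shares left its interval. These intervals rest on 2 to 26 genes and are wide, so this says little. DnajA, for example, fell from 100% to 75.0% with peaks of at least 1 kb. The share over all protein-coding genes, whose interval is narrow, moved to 44.2% with the TSS inside a peak, 49.9% in windows of 2 kb, 51.0% with any TSS, 43.7% with peaks of at least 1 kb, 47.4% with 500 bp of overlap and 43.8% without another TSS within 2 kb. The median peak width of members lay between 2738 and 3094 bp. With 250 bp before to 50 bp after the TSS, the median CpG ratio of marked members moved to 0.849 (0.791 to 0.890). It was 0.542 (0.293 to 0.715) in unmarked members, and in this window the intervals did not overlap. The share of members with a heat shock element moved to 24.4% with 2 units and to 11.6% with 3 units in 1 kb before the TSS (1.85% of all genes), since shorter motifs and longer windows match more often.

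No paired analysis was possible because the list pools both control replicates, which also meant that neither was left out. The list carries no height or depth.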
